A study of Mus musculus with 8 samples.

Results

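Interferon-stimulated genes were followed in cultured early erythroid progenitors of the mouse fetal liver. The list holds 39 genes, chosen by name: a probe belonged to it when it was no control and its gene name in the array files equalled a member. All 39 were on the array, with 49 of its 39429 probes (29 genes with 1 probe, 10 with 2). In all, 34 of the 39 passed the filter on dim probes and were tested among 19128 genes.

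The study compared the action of a glucocorticoid, dexamethasone (DEX), with that of an RNA-binding protein in these cells. Progenitors came from the liver of C57BL/6 mouse embryos at E14.5. Cells carrying lineage markers, Sca-1, CD16/32, CD41 or CD34 were depleted with magnetic beads, and c-kit-positive cells among the 10% with the lowest CD71 were sorted. All samples were then infected with a virus and cultured for 3 days, so none is uninfected. One group received the control virus without DEX and another the control virus with DEX. The other groups received a virus encoding shRNA 1 or one encoding shRNA 2, each with DEX. Neither shRNA was given without DEX. The labels name the target only as an RNA-binding protein; it is Zfp36l2 in the published study of this design. Each group had 2 arrays, 8 in all, and whether these were separate cultures or animals is not given in the sources used here, so every p-value reflects only how far these arrays differ, and that spread may be technical.

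Type I interferons signal through the receptor chains IFNAR1 and IFNAR2, the kinases JAK1 and TYK2, and a complex that includes STAT2 and IRF9, which binds interferon-stimulated response elements in the promoters of its target genes. The products of these genes detect viral RNA, degrade it, block its translation, tag proteins with the ubiquitin-like protein ISG15 and load antigen onto MHC class I, while USP18 and SOCS1 damp the signal. Interferon-gamma acts through a separate element, the gamma-activated site. Glucocorticoids are known for restraining inflammatory gene expression and, in erythroid progenitors, for supporting their expansion.

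The response element is shown here because it is the sequence through which type I interferon is known to act. RefSeq promoters (build GRCm38.p6, 250 bases before the annotated start) were found for 31 of the 39 genes, 35 promoters in all. The core of the element, GAAA, any 2 bases, GAAA, was searched on both strands. It was present in 13 of these 35 promoters (37.1%), 1 for each of 13 genes, against 978 of all 32851 RefSeq promoters (2.98%). A match describes the letters in this window only. The core of the gamma-activated site, TTCNNNGAA, was in 7 of the 35 and in 7.02% of all promoters, and overlapped 1 response-element core. The 6 genes below have the response-element core and are among those described by array further on. Capitals mark every core, which reads as TTTC, any 2 bases, TTTC where it lies on the opposite strand.
Ifit1, chr19:34640755-34640843, plus strand: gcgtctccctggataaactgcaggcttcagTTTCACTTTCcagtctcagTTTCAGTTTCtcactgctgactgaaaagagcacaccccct
Isg15, chr4:156200845-156200926, minus strand: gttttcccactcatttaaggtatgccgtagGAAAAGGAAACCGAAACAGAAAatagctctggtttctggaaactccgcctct
Rsad2, chr12:26456533-26456602, minus strand: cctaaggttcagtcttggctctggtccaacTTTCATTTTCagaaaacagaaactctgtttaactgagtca
Oas3, chr5:120777695-120777764, minus strand: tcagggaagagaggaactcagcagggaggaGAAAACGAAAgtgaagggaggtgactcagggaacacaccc
Irgm1, chr11:48871421-48871480, minus strand: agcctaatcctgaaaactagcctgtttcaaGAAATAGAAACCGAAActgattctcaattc
Gbp3, chr3:142559969-142560043, plus strand: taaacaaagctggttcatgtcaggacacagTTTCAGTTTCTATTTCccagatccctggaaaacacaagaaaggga
Isg15 had 3 overlapping cores, ending between 68 and 56 bases before its start. Ifit1 had 2 separate cores ending 94 and 75 bases before it, and Irgm1 and Gbp3 each had 2 that overlap, ending 14 to 35 bases before theirs.

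Levels are log2 signals with the 75th percentile of each array set to 0, and levels are not compared between genes. A probe was kept if at least 1 group had it well above background on its 2 arrays. A difference passed at an adjusted p of 0.05 (limma, Benjamini-Hochberg over all genes tested), and "blocked" marks values from the same model with the slide as a block. Between 58.9% and 62.5% of probes were well above background on an array, and none was saturated. Erythroid identity was checked first: all 11 early erythroid markers were tested, and the level of Gata1, the defining erythroid transcription factor, lay between 5.18 and 5.63 on the 8 arrays. Zfp36l2, the target of the shRNAs, stood at 3.48 and 3.86 without DEX, at 5.56 and 5.42 with DEX, at 4.09 and 3.91 with shRNA1 and at 4.13 and 3.69 with shRNA2. Its difference was 1.81 with DEX, -1.48 with shRNA1 and -1.57 with shRNA2, with an adjusted p of 0.391, 0.922 and 1.00 by limma over all genes. All replicate 1 arrays lay on 1 slide and all replicate 2 arrays on another, so replicate and slide cannot be told apart, and each slide held all 4 groups. The 2 slides stand apart in these genes, as described below, so values within each slide accompany every comparison.

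**Figure D1:**
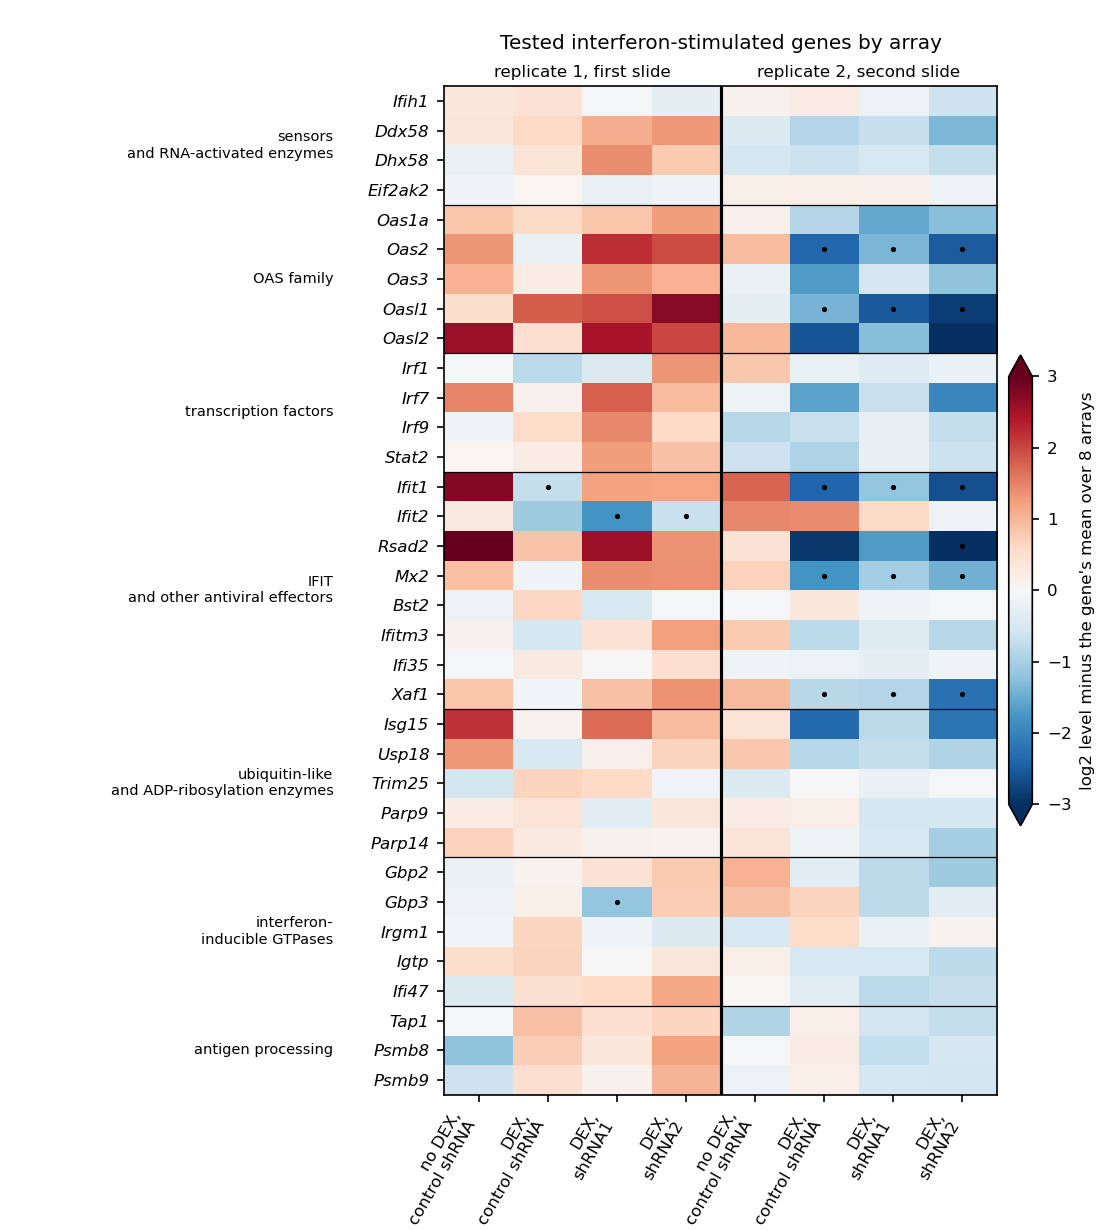
Level of each of the 34 tested genes on each array (columns, replicate 1 arrays left, replicate 2 arrays right) as the log2 difference from the gene's mean over the 8 arrays (colour, held at 3 and -3), grouped by role; dots mark values not well above background. The OAS family, Rsad2, Isg15 and Ifit1 are darkest, high on most first-slide arrays and low on second-slide arrays with DEX, while Bst2, Ifi35 and Eif2ak2 are pale throughout.

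The comparison of DEX with no DEX, both with the control virus, asks which genes respond to the glucocorticoid. With DEX 4 of 5 OAS genes and 6 of 8 IFIT and other antiviral effectors lay lower on both slides, the 3 antigen-processing genes lay higher, and none of these differences passed the test over all genes. Of the 34 genes, 19 lay lower and 15 higher, with a median difference of -0.19 against -0.08 over all genes, of which 62.5% lay lower. The 2 DEX arrays lay below both arrays without DEX for 10 of them, where 17.2% of all genes did, and above both for 6, where 10.1% did. A difference of at least 2-fold downward on both slides was seen for 7 (Ifit1, Rsad2, Isg15, Usp18, Oas2, Oasl2 and Irf7), against 2.07% of all genes, and upward for none, against 1.65%. All 7 kept it with dim values held at the lowest signal well above background on their array. Ifit1 and Oas2 passed the filter on dim probes only through the group without DEX, as did Mx2 and Xaf1 among the 10. Oasl1 did so too. A gene kept through that group alone is more likely to lie lower with DEX. These genes include Oas2 among the 4 OAS genes and Ifit1, Mx2 and Xaf1 among the 6 effectors, and they add little to the counts. Of these 7, only Ifit1, Rsad2, Isg15 and Oasl2 (4 genes) also reached 2-fold on both slides in the authors' deposited values and after normexp background correction. No gene of the 34 passed an adjusted p of 0.05 in limma; 0% of all genes did, with 601 of 19128 and 3 of the 34 under an unadjusted p of 0.05. In the blocked model 42 genes (0.22%) passed, again none of the 34, and 1824 of all genes and 12 of the 34 had an unadjusted p under 0.05. The smallest blocked adjusted p among the 34 was 0.0833, for Isg15. Markers of other blood cells moved the same way: 11 of 13 tested monocyte and macrophage markers, 15 of 16 granulocyte markers and 10 of 13 megakaryocyte markers lay lower with DEX (medians -1.05, -0.83 and -0.92), as did 5 of 7 mast cell and basophil markers (-1.20) and 10 of 11 early erythroid markers (-0.42). Relative to all genes, the first 3 of these medians were -0.23, 0.00 and -0.46 on the first slide and -1.85, -1.55 and -1.17 on the other. Their part in the result was not tested, and in these bulk samples fewer cells of a type cannot be told apart from less RNA per cell.

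Ifit1 encodes a protein that binds viral RNA lacking host cap methylation. Its probe lies at chr19:34723796-34723855 (mm9). It read -2.96 and -3.94 without DEX and -6.41 and -8.07 with DEX, and neither DEX array was well above background. Both DEX arrays lay far below both arrays without it, and the difference was at least 7.46-fold when the DEX group was held at the lowest signal well above background on its arrays. Its blocked adjusted p was 0.113. The size depends on the scale: the fitted difference, -3.79, was -1.38 after normexp and -1.54 in the authors' deposited values.

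Rsad2 encodes viperin, an enzyme that makes a chain-terminating nucleotide. On replicate 1 and replicate 2 arrays it read 0.96 and -2.02 without DEX and -1.61 and -5.37 with DEX. The groups overlap, because the second-slide array without DEX lay below the first-slide array with DEX, yet within each slide DEX lay lower, by -2.57 and -3.35. The difference was -2.96 (SE 2.41 without the block, 0.56 with it), with a blocked adjusted p of 0.134.

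Isg15 encodes the ubiquitin-like modifier itself, and Usp18 the protease that removes it and restrains the receptor. Isg15 read 3.15 and 1.41 without DEX and 1.10 and -1.35 with DEX, so the groups did not overlap, and a dimmer probe for the same gene gave -1.11 and -2.86 against -3.28 and -5.80. The difference was -2.41 (blocked SE 0.34). Usp18 read -3.28 and -3.78 without DEX and -5.05 and -5.46 with it, a difference of -1.73 (blocked SE 0.32, blocked adjusted p = 0.129; -0.89 at its smallest over the scalings). For both genes the difference was close on the 2 slides, at -2.06 and -2.76 for Isg15 and -1.77 and -1.68 for Usp18.

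The OAS proteins make 2'-5'-linked oligoadenylate, which activates an RNase, or are inactive relatives of these enzymes. In this family 4 of 5 genes lay lower with DEX, with a median difference of -1.16, and these were lower on both slides. Oasl2 read 2.79 and 1.20 without DEX against 0.71 and -2.39 with it, a difference of -2.83 (blocked SE 1.13). Oas2 read -3.69 and -4.06 against -5.24 and -7.38, where the last value was not well above background, a difference of -2.44 that shrank to -0.93 under another scaling. Oas3 and Oas1a differed by -1.16 and -0.64. Oasl1 had opposite signs on the slides (1.30 and -1.14). The OAS1 genes are near-identical copies, so the separate value of Oas1a is uncertain.

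Among the other antiviral effectors, Mx2, a dynamin-like GTPase, read -4.63 and -4.83 without DEX and -5.63 and -7.33 with it, the last not well above background. Its difference was -1.75 (blocked SE 0.63, blocked adjusted p = 0.448), and both DEX arrays lay below both others, but another scaling put it at -0.60. Xaf1, a gene that promotes apoptosis, differed by -1.35, Ifitm3, which blocks viral entry at membranes, by -1.13, and Ifit2 by -0.68. Bst2, or tetherin, which holds budding virions at the membrane, lay on the other side, at 2.48 and 2.60 without DEX against 3.27 and 2.98 with it. Ifi35 differed by 0.13.

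The transcription factors split. Irf7, which amplifies the response, read -2.33 and -3.96 without DEX and -3.66 and -5.40 with DEX, a difference of -1.39 that was close on the 2 slides (-1.34 and -1.44; blocked adjusted p = 0.248) and -0.84 at its smallest over the scalings. Irf1 differed by -0.90 and its groups did not overlap. Irf9 and Stat2, which form the signalling complex, differed by 0.42 and -0.06, and the sign of Stat2 flipped under median scaling.

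The sensors of viral RNA showed little difference with DEX. Ifih1 (MDA5), Ddx58 (RIG-I), their regulator Dhx58 and the kinase Eif2ak2 (PKR) had differences between -0.12 and 0.26. Parp9, Parp14 and Trim25, which modify proteins with ADP-ribose or ubiquitin, differed by 0.05, -0.47 and 0.81, and a second Trim25 probe, at 3.45 and 3.58 without DEX against 3.43 and 3.31 with it, did not repeat the direction of the first.

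Antigen processing formed the opposite group. Tap1, a subunit of the transporter that carries peptides into the endoplasmic reticulum, read -2.44 and -3.30 without DEX and -1.51 and -2.21 with it, a difference of 1.01 (blocked SE 0.23, blocked adjusted p = 0.186). Psmb8 and Psmb9, catalytic subunits of the immunoproteasome, differed by 1.11 and 0.75, but by 1.94 and 1.12 on the first slide against 0.28 and 0.38 on the other. The arrays of all 3 genes lay higher with DEX without overlap, and the sign was kept under the 4 other scalings. Irgm1, an interferon-gamma-induced GTPase, stood at 0.78 and 0.39 without DEX and at 1.51 and 1.42 with it, a difference of 0.88 (blocked SE 0.26, blocked adjusted p = 0.33) that its second probe also showed. The other GTPases, Gbp2, Gbp3, Igtp and Ifi47, had opposite signs on the 2 slides.

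**Figure D2:**
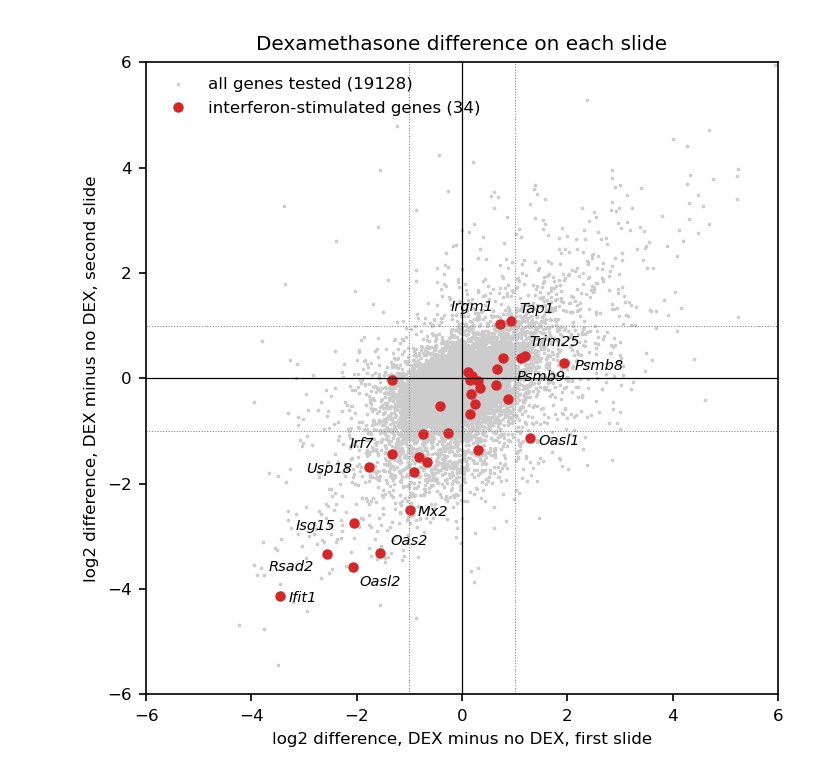
Difference between DEX and no DEX (log2) by slide, the first slide on the x axis and the other on the y axis, for the 34 genes (red) over all 19128 genes tested (grey); dotted lines mark 2-fold and 9 genes of other kinds lie outside the axes. Ifit1, Rsad2, Isg15, Oasl2, Oas2, Usp18 and Irf7 lie in the lower left beyond 2-fold on both slides, and Tap1, Irgm1, Psmb8, Psmb9 and Trim25 in the upper right.

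The comparison of shRNA1 with the control virus, both with DEX, asks what follows loss of the RNA-binding protein. With shRNA1 3 of 5 OAS genes and 5 of 8 IFIT and other antiviral effectors lay higher, and all 5 GTPases and all 3 antigen-processing genes lay lower. Of all genes 37.8% lay lower, so the counts of OAS genes and effectors are near the share of all genes. The DEX and shRNA comparisons share the DEX control arrays, so their opposite signs are not independent of each other. In all, 16 of the 34 lay higher and 18 lower, with a median of -0.10 against 0.18 over all genes, of which 37.8% lay lower. At least 2-fold higher on both slides were 5 (Ifit1, Rsad2, Isg15, Oas3 and Oasl2), against 3.03% of all genes; after array median scaling 3 of these did so (Ifit1, Rsad2 and Oasl2), and after normexp or in the authors' deposited values 2 of them (Isg15 and Oasl2). Ifit1 reached 2-fold on the second slide only between 2 values not well above background. At least 2-fold lower was 1, Gbp3, against 0.606%; held at the lowest signal well above background on its array, its dim first-slide value gave -0.93, short of 2-fold. The groups did not overlap for 6 genes lower and 1 higher, where 7.59% and 17.9% of all genes lay so. No gene passed an adjusted p of 0.05 in limma (0% without and 0% with the block), with 407 of all genes and 2 of the 34 under an unadjusted p of 0.05, and 3409 and 10 with the block. Markers of other blood cells lay higher: all 13 tested monocyte and macrophage markers, all 16 granulocyte markers and 12 of 13 megakaryocyte markers (medians 0.90, 1.54 and 0.76; relative to all genes 0.98, 1.59 and 1.08 on the first slide and 0.41, 1.22 and 0.27 on the other). So did 10 of 11 early erythroid markers (0.79), while 4 of 7 mast cell and basophil markers lay lower (-0.18). The part of these markers in the result was not tested.

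Isg15 read 1.10 and -1.35 with the control virus and 2.66 and 0.20 with shRNA1. The groups overlap, yet the differences within the slides were 1.57 and 1.55, for a mean of 1.56 (SE 1.44, blocked SE 0.34, blocked adjusted p = 0.232). Rsad2 read 0.12 and -4.17 with shRNA1 and Oasl2 read 2.67 and -1.08, which gives differences of 1.46 and 1.63. Oas2 read -2.80 and -6.40, a difference of 1.71 in which the second-slide values of both groups were not well above background. Ifit1 read -4.50 and -6.88 with shRNA1, only the first of these well above background. With dim values held at the lowest signal well above background on their array, its differences within the slides became 1.725 and 0. The fitted value of Ifit1, 1.56, was 0.24 in the authors' deposited values. Oas2 was at 0.60 at its smallest over the scalings. Within the slides the differences were 1.72 and 1.20 for Rsad2, 1.95 and 1.32 for Oasl2 and 2.44 and 0.98 for Oas2. Leaving out 1 array sets a group on 1 slide against a group on both, which mixes the slide into the difference. Without the first-slide shRNA1 array the differences of Rsad2, Oasl2 and Oas2 turned to -0.68, -0.24 and -0.09, and without the second-slide control array that of Rsad2 to -0.42.

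Oas3, Irf7, Irf9 and Stat2 lay higher with shRNA1 on both slides, by 1.15, 1.30, 0.66 and 0.86. All 4 tested transcription factors were on this side, although the sign of Irf1 (0.11) flipped under 3 of the 4 other scalings. The 5 GTPases all lay lower, with a median of -0.33, though Gbp2, Igtp and Ifi47 had opposite signs on the slides and Gbp2 flipped under normexp. Gbp3, which assembles on intracellular pathogens and their vacuoles, read -4.47 and -3.96 with the control virus and -5.80 and -5.42 with shRNA1, the first of these not well above background. Both shRNA1 arrays lay below both controls, by -1.33 and -1.46 on the slides (SE 0.53, adjusted p = 0.922 over all genes, 0.269 with the block). The mean difference, -1.39, was -0.76 in the authors' deposited values and -0.09 after normexp. Irgm1 read 0.74 and 0.67 with shRNA1 against 1.51 and 1.42. Tap1, Psmb8 and Psmb9 lay lower on both slides, by -0.56, -0.69 and -0.56 on average. Bst2 read 2.17 and 2.50 against 3.27 and 2.98, a difference of -0.79.

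**Figure D3:**
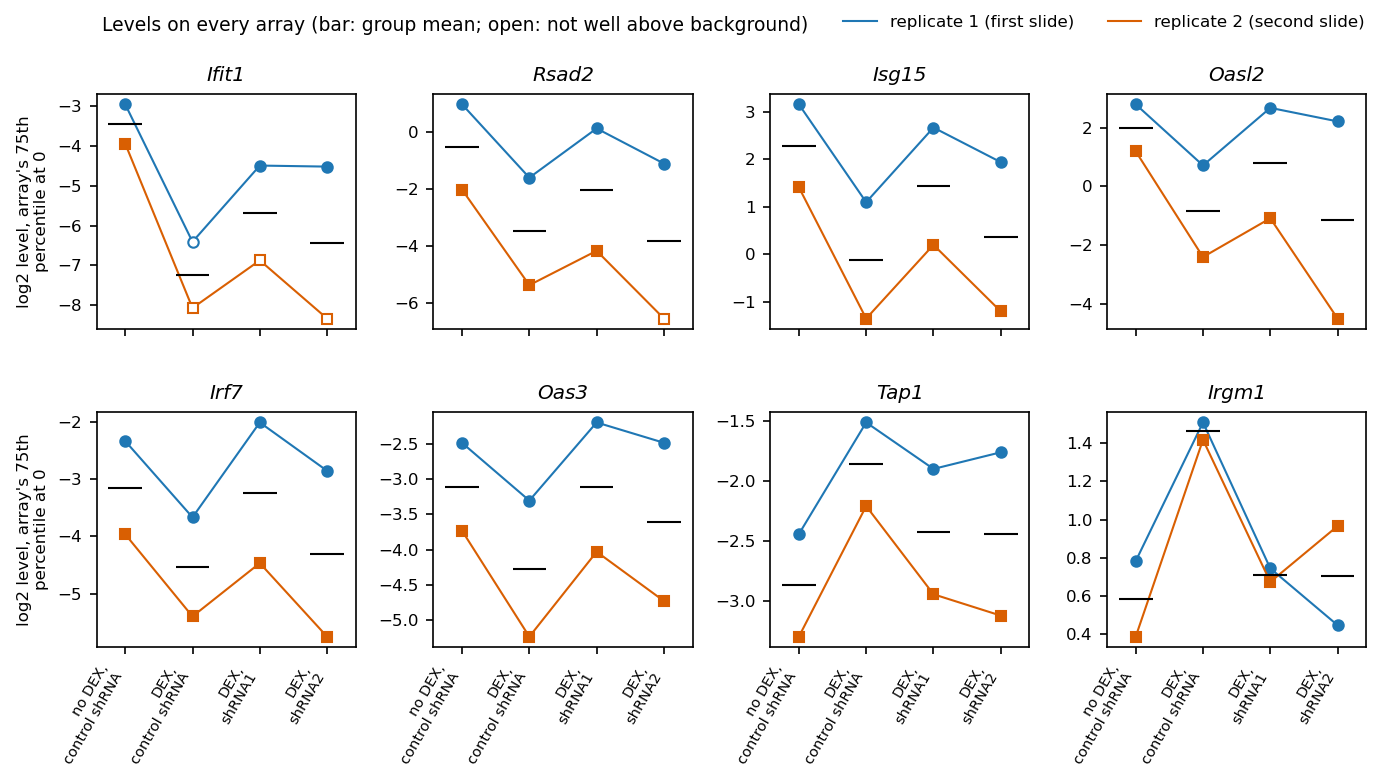
Level of 8 genes (log2, array's 75th percentile at 0) on every array by group (x axis), with replicate 1 in blue and replicate 2 in orange, group means as black bars and open symbols where not well above background. The second-slide line runs below the first-slide line in every panel but that of Irgm1, Ifit1, Rsad2, Isg15, Oasl2, Irf7 and Oas3 have a lower mean with DEX than without, and Tap1 and Irgm1 a higher one.

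With shRNA2 the 2 slides did not give the same picture. On the first slide the median of the 34 genes lay 0.55 above that of all genes, and on the second -0.36 from it, and 19 of the 34 had opposite signs on the slides. In all, 16 lay higher and 18 lower, with a median of -0.02 against 0.02 for all genes, of which 48% lay lower. The number of the 34 that lay lower was 25 after median scaling, 13 after normexp and 14 in the authors' deposited values. None was 2-fold higher or lower on both slides, where 0.758% and 0.261% of all genes were. The groups did not overlap for 5 genes lower and 1 higher, against 8.1% and 7.39% of all genes. By limma 0% of genes passed without the block and 1 gene, none of the 34, with it (0.00523%), and 238 of all genes and 1 of the 34 had an unadjusted p under 0.05. Of the other blood cell markers, 12 of 13 for monocytes and macrophages, 16 of 16 for granulocytes and 12 of 13 for megakaryocytes lay higher (medians 1.44, 2.33 and 1.19). Relative to all genes these medians were 2.55, 4.05 and 2.74 on the first slide but 0.29, 0.61 and -0.10 on the other, and 3 of the 13 megakaryocyte markers were higher on both slides. Of the mast cell and basophil markers 5 of 7 lay higher (1.03) and of the early erythroid ones 5 of 11 (-0.01), and the part of these markers in the result was not tested.

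Ifih1 had nearly the same difference on both slides. It read -0.05 and -0.25 with the control virus and -0.78 and -1.11 with shRNA2, lower by -0.73 and -0.86 on the slides (SE 0.29, adjusted p = 1.00). Irgm1 lay lower too, at 0.45 and 0.97 against 1.51 and 1.42, and Tap1 at -1.76 and -3.12 against -1.51 and -2.21. Irf1 read -0.78 and -2.32 against -2.92 and -2.34, so its difference of 1.08 came from the first slide (2.14 against 0.02). Mx2 and Oas3 differed by 0.91 and 0.66 (on the slides 1.46 and 0.36 for Mx2, 0.82 and 0.51 for Oas3). On the second slide the Mx2 values of both groups were not well above background. Leaving out 1 array mixes the slide into a difference. Without the first-slide shRNA2 array Mx2 and Oas3 stood at -0.49 and -0.46, and Oas3 at -0.30 without the second-slide control array. Tap1, at -0.58 over both slides, was at 0.10 without the second-slide shRNA2 array. Isg15 differed by 0.50, and Rsad2 by 0.49 and -1.17 on the slides. Ifit1 read -4.52 and -8.34 with shRNA2, only the first of these well above background, against -6.41 and -8.07 with the control virus. Its mean with shRNA2 lay under the mean of the lowest signals well above background on the 2 control arrays, so both arrays together gave no fold. On the first slide alone its value with shRNA2 lay above that lowest signal, which was -6.22 on the control array.

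The shRNAs were also compared directly, since both aim at the same protein. In total 19 of the 34 lay higher with shRNA1 than with shRNA2 and 15 lower, where 36.7% of all genes lay lower. The median of the 34 was 0.06 against 0.12 over all genes, and in the authors' deposited values 19 lay lower. None passed (0% of all genes without and 0% with the block), with 456 of all genes and 0 of the 34 under an unadjusted p of 0.05, and 2091 and 3 with the block. Oasl2 differed by 1.93, but by 0.46 and 3.40 on the slides (blocked SE 1.13). Rsad2 differed by 1.80 (1.23 and 2.37, blocked SE 0.56), Irf7 by 1.07 (0.85 and 1.29) and Isg15 by 1.06 (0.73 and 1.40). Without the second-slide shRNA2 array these 4 differences turned to -1.41, -0.91, -0.38 and -0.51, and without the first-slide shRNA1 array those of Rsad2, Irf7 and Isg15 to -0.34, -0.16 and -0.17. Each of these fits sets a group on 1 slide against a group on both, so the slide enters the difference. On the other side Gbp3 differed by -1.16 (-0.20 after normexp) and Irf1 by -0.97. A difference between the shRNAs that misses the test does not show that they act alike.

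The slides differed widely in these genes. Second-slide arrays read lower for 30 of the 34 genes, with a median of -0.86 against -0.18 over all genes, of which 58.1% read lower. In 20 of the 34 the second slide was lower under all 4 other scalings as well. This comparison was added after the values by array were seen. By limma with the groups in the model, 18 were called lower, against 30.8% of all genes, and 1 higher (Ifit2), against 19.1%. The calls depended on the arrays used: they fell away with either shRNA1 array left out. Fewer of the 34 were called lower with either DEX control array or either shRNA2 array left out. A group left with 1 array adds nothing to the slide difference, so leaving out one or the other array of a group gives nearly the same fit. Such a fit also has fewer degrees of freedom, so lost calls need not mean reliance on particular arrays. In 20 genes every group read lower on the second slide, which 39.3% of all genes did.

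Rsad2 read lower on the second slide by -4.12 (SE 0.40, adjusted p = 0.0119), with -2.99 in the group without DEX, -3.77 with DEX, -4.28 with shRNA1 and -5.43 with shRNA2. Oasl2 followed with -3.78, Oasl1 with -3.50, Oas2 with -2.64, Isg15 with -2.45, Ifit1 with -2.21 and Irf7 with -2.19. All 5 OAS genes passed, as did Irf9 and Stat2, partners of the signalling complex, at -1.25 and -1.22. In 10 genes (Rsad2, Isg15, Irf7, Stat2, Ddx58 and the 5 OAS genes) the call also held under each of the 4 other scalings. Of the 18, 13 were well above background on all 8 arrays, while Ifit1, Oas2, Oasl1, Mx2 and Rsad2 had arrays that were not, so their differences rest in part on background signal. Ifit2 ran the other way by 1.63, and its sign flipped under normexp. Irgm1, Bst2, Irf1 and Eif2ak2 differed by -0.01, 0.04, -0.01 and 0.18. The scale of the arrays moved with the slide: the 75th percentile of the log2 signal lay between 8.89 and 9.97 on the first slide and between 10.5 and 11.0 on the other, and its part in the result was not tested.

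**Figure D4:**
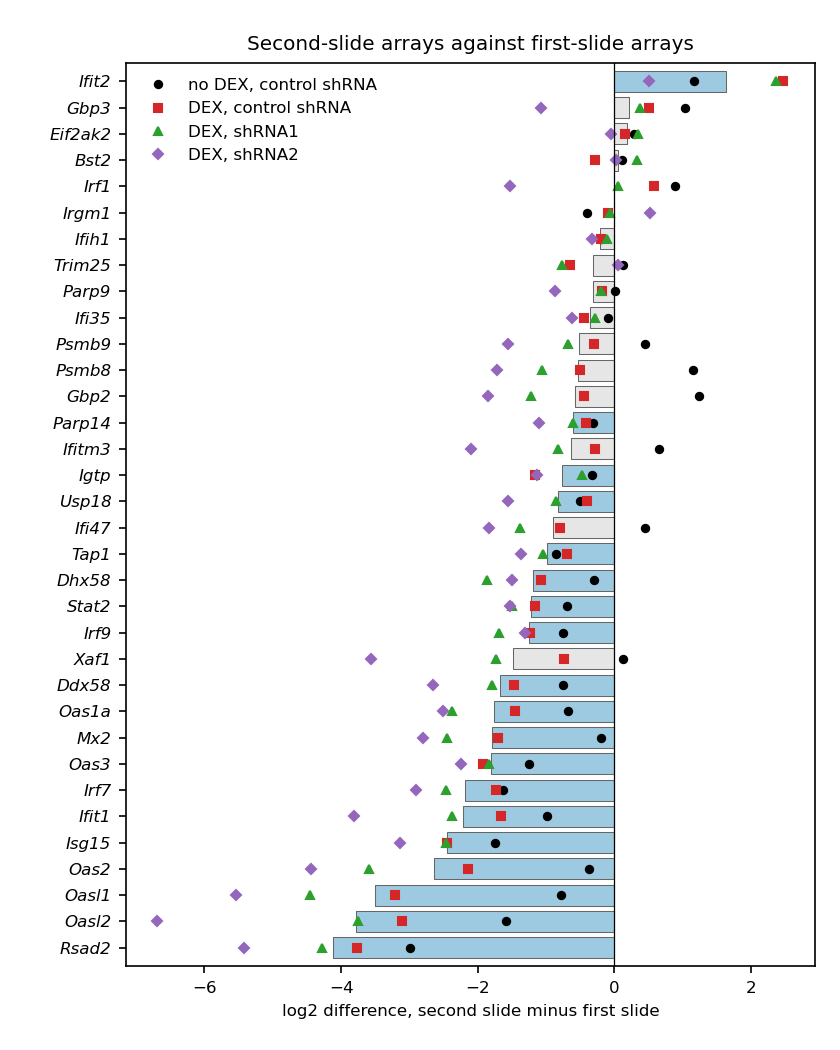
Second slide minus first slide (log2, x axis) for each of the 34 genes (y axis), as the fitted difference over the 4 groups (bars, blue where adjusted p passed 0.05) and in each group (symbols). Rsad2, Oasl2, Oasl1 and Oas2 lie farthest left, and the group without DEX lies nearest 0 for Oas2, Oasl1 and Oasl2.

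Other interferon-stimulated genes were taken as a list of 83, of which 62 were tested. With DEX 25 lay higher and 37 lower, where 62.5% of all genes lay lower, with a median of -0.13. On both slides 7 were at least 2-fold lower and 2 at least 2-fold higher, against 2.07% and 1.65% of all genes. None passed in any of the 4 comparisons, with or without the block. Those with the widest difference were Mndal and Ifi203, of the DNA-sensing HIN-200 family, and Ly6a, which encodes Sca-1. Mndal read -4.93 and -3.49 without DEX and -7.30 and -6.54 with it, and Ly6a -5.93 and -3.40 against -7.99 and -6.42. Ly6a reached -2.49 on the first-slide shRNA2 array, and Mndal -3.36. With shRNA1 40 of the 62 lay higher and 22 lower, where 37.8% of all genes lay lower, and with shRNA2 37 and 25, where 48% did. The split into higher and lower with DEX and with shRNA1 is thus near that of all genes, while the 2-fold lower count with DEX lies above its share. On the second slide 48 of the 62 read lower and 25 were called lower, against 58.1% and 30.8% of all genes.

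The genes upstream of the response were measured too. Of 17 interferon genes on the array, 9 were tested. With DEX 7 lay lower, where 62.5% of all genes did (median -0.14, against -0.08 over all genes). With shRNA1 8 lay higher (median 0.49, against 0.18 over all genes, of which 37.8% lay lower). With shRNA2 5 lay higher (median 0.00, against 0.02 over all genes, of which 48% lay lower). All 9 lay higher with shRNA1 than with shRNA2, where 36.7% of all genes lay lower. Their probes were dim, with a median level between -4.66 and -3.32 on the arrays, and the part of background in these counts was not tested. In the list of receptors, kinases and STATs 10 of 12 were tested, 4 higher and 6 lower with DEX. Jak1 read 2.94 and 2.89 without DEX, 3.73 and 3.56 with it, 2.94 and 2.82 with shRNA1 and 2.88 and 3.17 with shRNA2. The 2 DEX control arrays lay above all others, with differences of 0.73 for DEX, -0.77 for shRNA1 and -0.62 for shRNA2. Ifnar2, a receptor chain, differed by -0.78 with DEX and 0.68 with shRNA1. In the sensing and induction list 23 of 27 were tested and none passed. Mavs, the adaptor of RIG-I and MDA5, read 2.19 and 1.83 without DEX and 0.98 and 1.03 with it.

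Negative regulators were mixed: of the 3 that differed most with DEX, Socs1 and Tnfaip3 lay higher and Socs3 lower. Socs1, which inhibits the JAK kinases, read -1.74 and -2.13 without DEX, 0.30 and 0.27 with DEX, -1.35 and -0.92 with shRNA1, and -1.19 and -0.34 with shRNA2. The DEX control arrays lay above all others, with a difference of 2.22 for DEX (SE 0.39, adjusted p = 0.402, 0.0881 with the block), -1.41 for shRNA1 and -1.05 for shRNA2. Tnfaip3 (A20), which restrains NF-kB signalling, differed by 2.19 with DEX (blocked adjusted p = 0.0774) and by -0.13 and -0.61 with the shRNAs. Socs3 differed by -1.50 with DEX and 1.45 with shRNA1. All 25 genes of this list were tested, 13 higher and 12 lower with DEX, where 62.5% of all genes lay lower, and none passed.

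Beside the antigen-processing genes, the list of MHC class I genes had 13 of 23 tested genes higher with DEX, Tap2 by 0.93, and 9 of 23 higher with shRNA1. MHC class II had 3 of 7 higher with DEX; its invariant chain Cd74 read -2.80 and -3.04 without DEX and -4.44 and -4.80 with it. In the NF-kB list 8 of 15 lay higher with DEX. Over all genes 62.5% lay lower with DEX and 37.8% lay lower with shRNA1.

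The markers of other blood cells were also followed array by array, as the median log2 difference from each gene's mean. Of 26 monocyte and macrophage markers 13 were tested, of 18 granulocyte markers 16 and of 14 megakaryocyte markers 13, and the rest were too dim. The monocyte and macrophage median was -0.22 and 0.92 without DEX, -0.70 and -1.24 with DEX, 0.43 and -0.31 with shRNA1 and 2.23 and -0.62 with shRNA2. The first-slide shRNA2 array stood highest in all 3 marker lists, at 2.23, 2.51 and 2.22, and in the interferon-stimulated genes, at 0.92. The medians of the 34 genes were 0.25 and 0.16 without DEX, 0.33 and -0.57 with DEX, 0.54 and -0.54 with shRNA1 and 0.92 and -0.76 with shRNA2. Both medians were below 0 on the second-slide DEX control, shRNA1 and shRNA2 arrays, while on the second-slide array without DEX the monocyte and macrophage median stood at 0.92 and that of the 34 genes at 0.16.

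**Figure D5:**
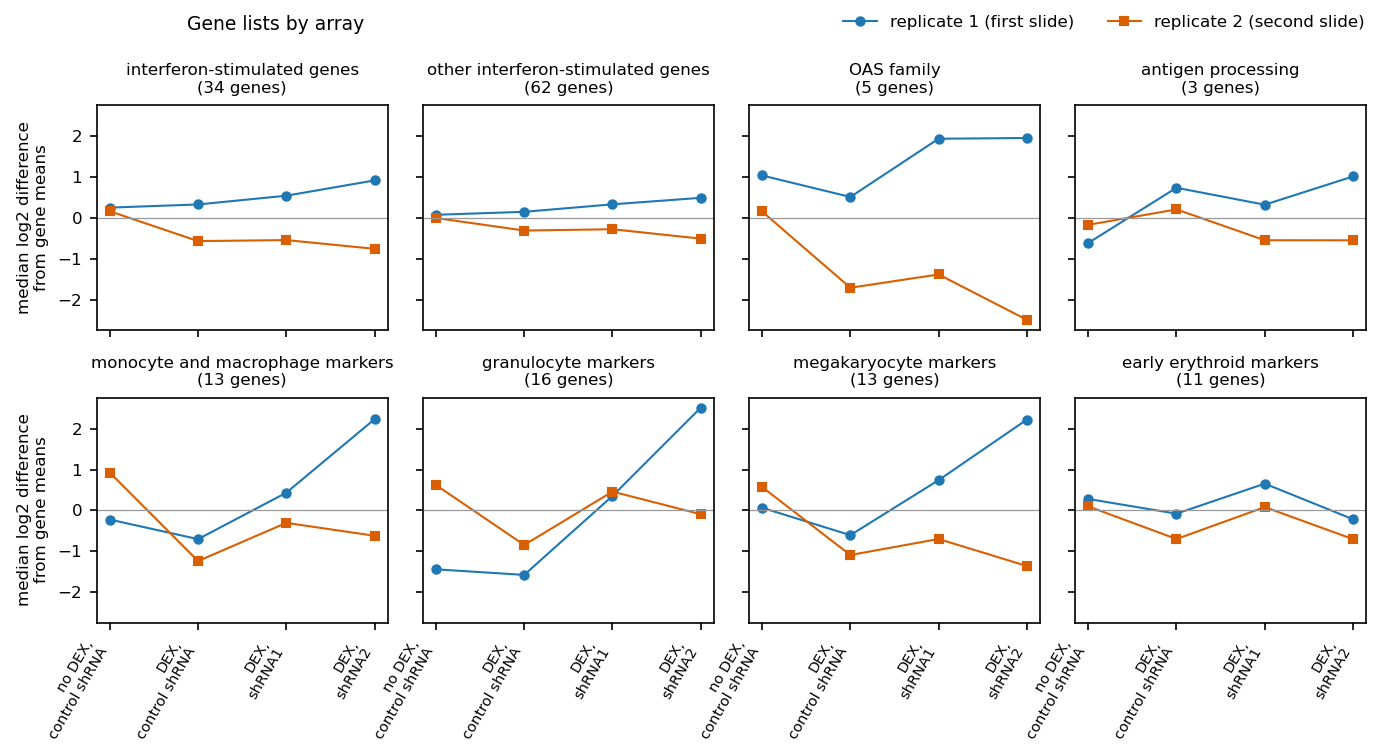
Median log2 difference from gene means (y axis) of 8 gene lists on each array, by group (x axis), with replicate 1 in blue and replicate 2 in orange. The slides part most in the OAS family, and the replicate 1 shRNA2 array is highest in the monocyte, granulocyte and megakaryocyte markers.

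The members that were not tested were Ifit3, Mx1, Ifi44, Cxcl10 and Zbp1. Ifi44 and 1 of 2 Cxcl10 probes were not well above background on any array. Ifit3, the brighter Cxcl10 probe and 1 Zbp1 probe were so on the second-slide array without DEX alone, at -4.48, -4.12 and -5.42. Mx1 was so on that array, at -4.87, and on the first-slide shRNA2 array, at -3.80.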

How the data were processed

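Total RNA was labelled with Cy3 and hybridised to 8 one-colour Agilent arrays, 4 on each of 2 slides. Intensities were read with Agilent Feature Extraction 10.1.1.1, per the file headers, which detrends each array without scaling arrays to each other; probe positions are on mm9. The authors' deposited log2 values, for which the submitters' processing notes name limma but no steps, served as an alternative. From the processed intensities, log2 was taken, the 75th percentile of each array subtracted, control spots (1377 of 44397) and outlier spots dropped, spots of a probe averaged, and the brightest probe of a gene used; 26581 probes were named by accession. Genes were compared with limma 3.58.1 (R 4.3.3) over all 4 groups, without and with the slide as a block, with Benjamini-Hochberg adjustment over 19128 genes. Same-numbered arrays deviated together (correlations 0.431 to 0.859 over 6 pairs of groups), and each number is 1 slide. The code was checked on simulated data. Members, lists and tests were chosen with earlier results of these data known. Genes given array by array are, per comparison, the 6 tested members that differ most with 1 sign on both slides; other members and up to 3 genes of each other list by size are given more briefly. Alternatives were quantile normalization, median scaling, normexp (offset 50), no filter on dim probes, the mean of all probes of a gene, the authors' values, each slide alone and each array left out.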

Additional observations from a re-analysis of the deposited data

Results flagged for a closer look

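Ifi35, an interferon-induced protein, differed in opposite directions with the 2 shRNAs on both slides. It lay at -0.26 and -0.11 with shRNA1 and at 0.23 and 0.05 with shRNA2, against the same control arrays, and the sign with shRNA2 flipped under median scaling. The shRNA1 minus shRNA2 difference was -0.327 (SE 0.35), with an adjusted p of 1.00 by limma (0.597 with the block), so the difference itself did not pass.

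Of the probes that no comparison used, 3 dim ones reached their highest level, well above background, on an array with DEX. The Mx1 probe reached -3.798 on the first-slide shRNA2 array, above both arrays without DEX. A second Ifih1 probe reached -5.63 on the second-slide DEX control array, against -5.97 and -5.85 without DEX. A second Xaf1 probe reached -3.112 on the first-slide DEX control array, where it was above background on no other array.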

How the results depend on the processing

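No member was called in the 4 comparisons between groups under any setting run, and the smallest adjusted p of a member was 0.0833. The replicate block, which is the slide, raised the genes called with DEX to 42 and with shRNA2 to 1, and moved no other count from 0. The members' median minus that of all genes, -0.28 with shRNA1, was -0.028 after normexp, 0.031 on the first slide and -0.542 to 0.255 with 1 array left out; with shRNA2 (-0.03) that range was -0.789 to 0.887, and between the shRNAs (-0.06) -0.907 to 0.606. With DEX (-0.11) it was 0.074 without the second-slide DEX control array and 0.25 on the first slide against -0.45 on the other. With shRNA2, 18 members lay lower, but 9 on the first slide, 28 on the other and 6 to 33 with 1 array left out; between the shRNAs 15 did, but 9 on the second slide and 6 to 30 with 1 array left out. Members 2-fold lower with DEX numbered 7, but 4 after normexp and 4 in the authors' values. Members 2-fold higher with shRNA1 numbered 5, but 3 after median scaling, 2 after normexp and 2 in the authors' values. Between the slides 9541 genes were called, and 0 to 10144 with 1 array left out; the median (-0.68) was -0.204 without the filter on dim probes. These genes were called lower or higher 5892 to 3649, but 1990 to 6664 after median scaling and 9126 to 3640 after normexp. Median scaling moved the median of all genes from 0.18 to -0.22 with shRNA1, from 0.02 to -0.23 with shRNA2 and from -0.18 to 0.45 between slides.

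Of 360 alternatives over 24 named differences, 345 kept direction and side of the threshold and 15 reversed, all of them with 1 array left out. With 1 array left out, shRNA1 gave -0.679 to 3.606 for Rsad2 (-0.419 without the second-slide control array), -0.239 to 3.509 for Oasl2 and -0.089 to 3.511 for Oas2. With shRNA2 it gave -0.487 to 2.311 for Mx2, -0.458 to 1.783 for Oas3 (-0.302 without the second-slide control array) and -1.263 to 0.100 for Tap1. Between the shRNAs it gave -1.414 to 5.277 for Oasl2, -0.912 to 4.515 for Rsad2, -0.384 to 2.523 for Irf7 and -0.505 to 2.63 for Isg15. Leaving out 1 array leaves a group with a single array, assumed to vary like the others, and mixes the slide into the difference. The slide comparison, the 2-fold counts and the holding of dim values at the lowest measurable signal (7 members with DEX and 4 of 5 with shRNA1 then kept 2-fold) were added after the data were seen. With 2 arrays a group the SE of a difference can be wide (2.41 for Rsad2, 0.56 with the block), and dim probes such as those of Ifit1, Oas2 and Mx2 are limited by background. The causes were not tested.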
